A study of Fukomys damarensis and Heterocephalus glaber and Cavia porcellus with 28 samples.

Results

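Apolipoproteins are the proteins that package lipid into plasma lipoproteins, and lecithin-cholesterol acyltransferase (LCAT) is the plasma enzyme that esterifies cholesterol on them. The genes described here are Apoa1, Apoa2, Apoa4, Apoa5, Apob, Apoc3, Apoe, Apoh, Apom and Lcat, a list of 10 symbols chosen by name. Of these, 9 had a row in the deposited tables, among 13928 rows in each table, and Apob was not analysed here. RNA depleted of ribosomal RNA was sequenced from 2 organs, heart and liver, of 4 rodents. These were Heterocephalus glaber (naked mole-rat), Fukomys damarensis (Damaraland mole-rat), Cavia porcellus (guinea pig) and Mus musculus (mouse), chosen to compare expression in mole-rats with that in the other rodents as outgroups. The liver groups held 5 Damaraland mole-rats, 4 naked mole-rats, 3 guinea pigs and 2 mice, and the heart groups 5, 3, 3 and 3 of these species. The labels record no treatment and no genetic modification, and the mouse strain is not given in the sources used here. The mice were 2 months old, the guinea pigs 2.3 months, the naked mole-rats 13 to 17 months and the Damaraland mole-rats 36 to 48 months, so species and age cannot be told apart. The animal DMR1 carries an age of 48 months with its heart and 36 months with its liver. All animals were male except the female that gave Damaraland liver replicate 4.

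In mammals the liver makes most circulating apolipoproteins. Apoa1 and Apoa2 encode the main structural proteins of high-density lipoprotein (HDL), LCAT acts on HDL with apolipoprotein A-I as its activator, and apolipoprotein M sits mostly on HDL, where it carries sphingosine-1-phosphate. Apolipoproteins A-V and C-III act in opposite directions on the clearance of triglyceride-rich lipoproteins, apolipoprotein A-IV is a lipid-binding protein of chylomicrons and HDL, apolipoprotein E is the ligand through which receptors remove lipoprotein remnants, and apolipoprotein H, or beta-2-glycoprotein I, binds phospholipids. Mice carry most of their plasma cholesterol in HDL, whereas guinea pigs carry most of it in low-density lipoprotein.

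The values are variance-stabilised read counts on a log2-like scale, on which a gene without reads has the value 4.29 in liver and 5.36 in heart, here called the floor. Differences of rarely read genes are compressed on this scale, and no correction for gene length is contained in it, so levels are compared between species for the same gene and not between genes. Inverting the transform gave reads per gene that were whole numbers for 100% of values, with totals of 11220505 to 21467939 per liver library and 4089633 to 26985779 per heart library. The lowest total belonged to naked mole-rat heart replicate 3. Each library came from a separate animal within its group, so the spread described here is between animals, and 10 of the 18 animals gave both tissues. How reads were assigned to matching genes across species is not given in the sources used here, so differences of gene models cannot be told apart from differences of expression. The tissue labels were checked with markers: the 11 measured of 12 hepatocyte markers summed to 95219 to 212700 RPM (reads scaled to the same total in every library) in liver and 24.4 to 2560 in heart, and the 8 cardiomyocyte markers to 38880 to 129600 in heart and 63.2 to 439 in liver, with no hepatocyte marker at 0 in either tissue. In whole tissue, fewer cells of a type and less RNA per cell cannot be told apart.

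In liver, none of the 9 genes was shifted in both mole-rats by limma. Such a shift required a difference of at least 1 with an adjusted p under 0.05, here named a call, with the same sign in all 4 comparisons of a mole-rat with an outgroup. Among all 10887 genes tested in liver, 6.29% met this rule. The count was 0 also at an unadjusted p under 0.05 and with voom on the recovered reads. Calls between single pairs of species were common: 5 of 9 genes for the naked mole-rat against the guinea pig (37.8% of all genes tested), 3 against the mouse (41.2%), 4 for the Damaraland mole-rat against the guinea pig (36.2%), 5 against the mouse (39.2%), 5 for the naked against the Damaraland mole-rat (34.2%) and 4 for the guinea pig against the mouse (37.2%). These counts lie near the shares for genes at large, so their number is not a result about the apolipoprotein genes. What separated the genes was which species stood apart. Apoa2 and Apoa5 were low in the naked mole-rat, Apoa1 and Apom were low in the guinea pig, Apoa1 was high in the mouse, and Apoa4 was high in the Damaraland mole-rat, each against all 3 other species. Apoe and Lcat had no call in any of the 6 pairs by limma or voom, with 0 and 2 pairs at an unadjusted p under 0.05 whatever the size. All adjusted p-values are from limma fitted across every tested gene of a tissue with Benjamini-Hochberg adjustment, and errors are SD between animals or, for differences, limma standard errors (SE).

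**Figure D1:**
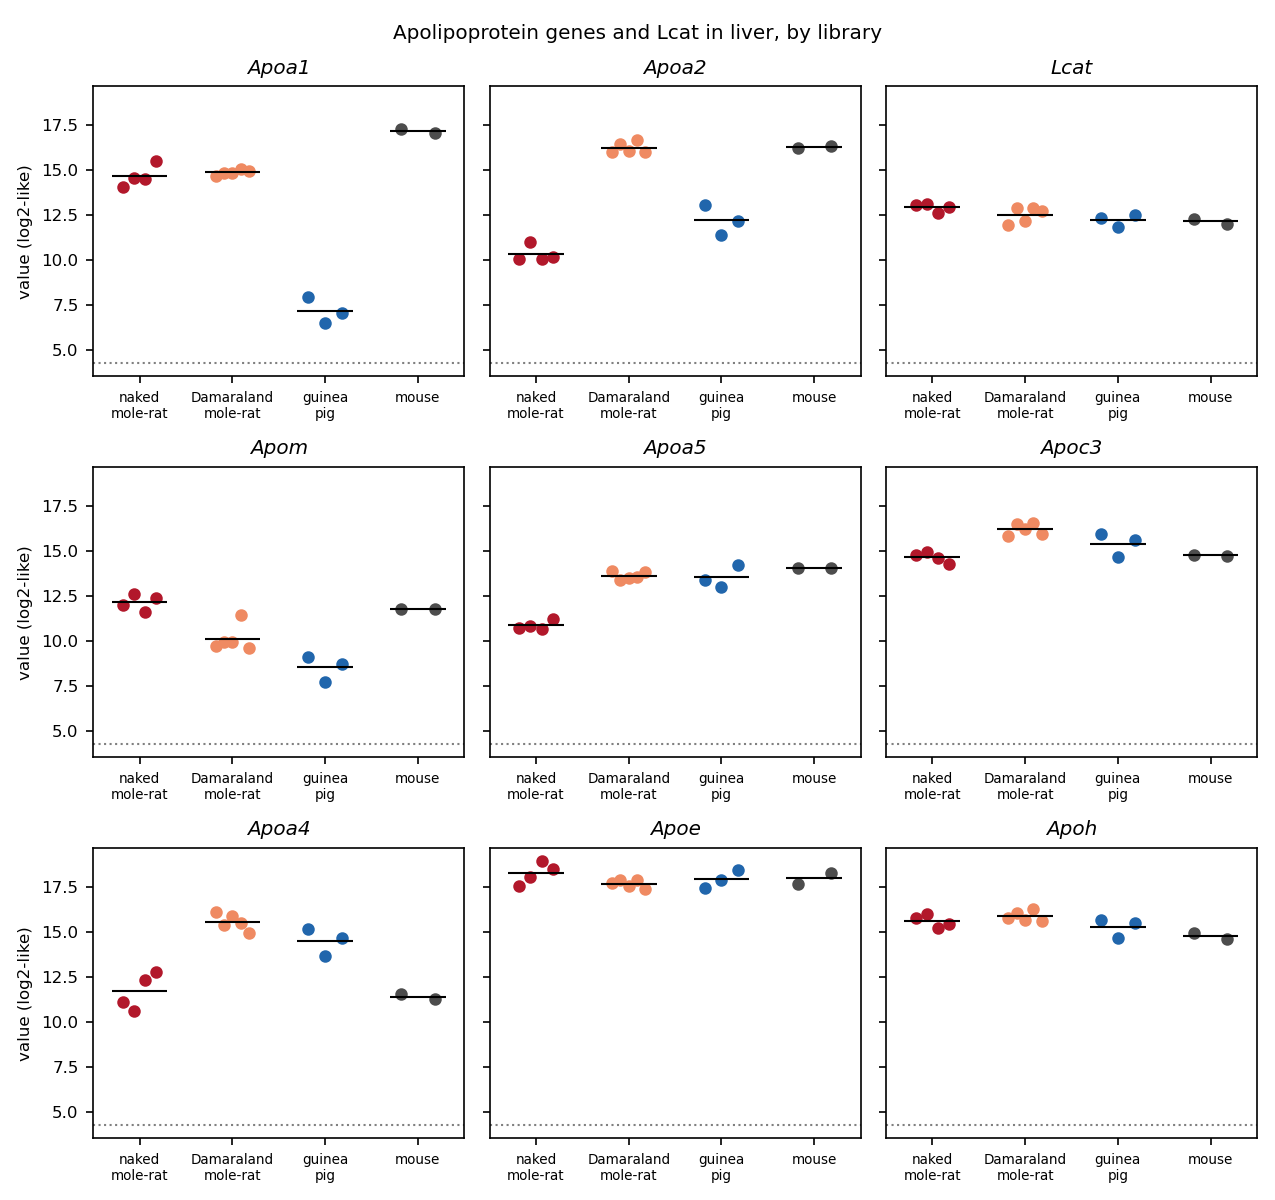
Liver values of the 9 genes in each library (points) and the mean of each species (bars), on the log2-like scale with the floor as a dotted line. Guinea pig livers sit lowest for Apoa1, at 6.51 to 7.96, and naked mole-rat livers lowest for Apoa2 and Apoa5, while the Apoe values of all species overlap.

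Apoa1 (ENSMUSG00000032083), the principal HDL protein gene, spanned the widest range. Its liver values were 14.04, 14.56, 14.49 and 15.46 in the naked mole-rats, and 14.65, 14.81, 14.83, 15.03 and 14.96 in the Damaraland mole-rats. They were 7.96, 6.51 and 7.07 in the guinea pigs and 17.26 and 17.03 in the mice. The mole-rat species overlapped, every guinea pig lay far below them and both mice above. In reads scaled for library size, the means were 27274 in the naked mole-rat, 29777 in the Damaraland mole-rat, 122 in the guinea pig and 145183 in the mouse, and the guinea pig libraries held 302, 68 and 145 reads. The guinea pig was lower than the mouse by 9.96 on the value scale (SE 0.37, adjusted p = 1.01e-12). The naked and Damaraland mole-rats exceeded the guinea pig by 7.46 (SE 0.31, adjusted p = 1.94e-12) and 7.68 (SE 0.30, adjusted p = 9.4e-13). Against the mouse the differences were -2.50 (SE 0.35, adjusted p = 8.96e-06) and -2.29 (SE 0.34, adjusted p = 1.72e-05). The naked minus Damaraland difference was -0.22, with a 95% interval from -0.80 to 0.36. Among all genes tested, 4.28% were lower in the guinea pig than in each other species, and 6.33% higher in the mouse than in each.

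Apoa2 (ENSMUSG00000005681), the other main HDL protein gene, separated the mole-rats from each other. The naked mole-rats had 10.05, 11.01, 10.08 and 10.19, and the Damaraland mole-rats 15.98, 16.42, 16.07, 16.67 and 16.00. The guinea pigs had 13.07, 11.38 and 12.19, and the mice 16.21 and 16.35. Damaraland mole-rats and mice shared a range, guinea pigs lay between, and the highest naked mole-rat was still under the lowest guinea pig. Mean scaled reads were 1304 in the naked and 78218 in the Damaraland mole-rat, 5275 in the guinea pig and 79381 in the mouse. The naked mole-rat differed by -5.90 from the Damaraland mole-rat (SE 0.28, adjusted p = 1.08e-11), by -5.94 from the mouse (SE 0.37, adjusted p = 3.62e-10) and by -1.88 from the guinea pig (SE 0.32, adjusted p = 6.79e-05). Among all genes tested, 4.45% were lower in the naked mole-rat than in each other species. The Damaraland minus mouse difference was -0.05 (95% interval -0.79 to 0.70).

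Lcat (ENSMUSG00000035237) varied little between species in liver. Its values were 13.03, 13.13, 12.63 and 12.97 in the naked mole-rats, 11.97, 12.86, 12.15, 12.89 and 12.69 in the Damaraland mole-rats, 12.33, 11.84 and 12.50 in the guinea pigs and 12.27 and 12.02 in the mice. The lowest naked mole-rat lay above every guinea pig and mouse, but within the Damaraland range. The naked mole-rat mean of 12.94 exceeded the guinea pig mean by 0.72 (SE 0.24, adjusted p = 0.0133) and the mouse mean by 0.79 (SE 0.27, adjusted p = 0.0156), both under the size required of a call. The other 4 differences ran from 0.08 to 0.43, and none of them had an adjusted p under 0.05.

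Apom (ENSMUSG00000024391) fell into 3 levels. The naked mole-rats had 12.00, 12.61, 11.61 and 12.40 and the mice 11.78 and 11.76, which overlapped. The Damaraland mole-rats had 9.71, 9.96, 9.94, 11.43 and 9.59, where 11.43 belonged to the single female, and the guinea pigs had 9.12, 7.74 and 8.75. The guinea pig was below the naked mole-rat (difference 3.62, SE 0.38, adjusted p = 2.7e-07), the Damaraland mole-rat (1.59, SE 0.37, adjusted p = 0.00105) and the mouse, from which it differed by -3.23 (SE 0.46, adjusted p = 1.16e-05). The naked exceeded the Damaraland mole-rat by 2.03 (SE 0.34, adjusted p = 4.43e-05). The call of each of these differences held without Damaraland liver replicate 4. The part of sex in that library was not tested.

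Apoa5 (ENSMUSG00000032079), whose product promotes lipolysis of triglyceride-rich particles, was low in the naked mole-rat alone. The naked mole-rats had 10.73, 10.82, 10.66 and 11.23. The Damaraland mole-rats had 13.87, 13.41, 13.47, 13.57 and 13.80, the guinea pigs 13.38, 13.00 and 14.23, and the mice 14.03 and 14.02. No naked mole-rat reached the lowest library of any other species, and the other 3 species lay close together. The naked mole-rat differed by -2.76 from the Damaraland mole-rat (SE 0.21, adjusted p = 3.97e-09), by -2.68 from the guinea pig (SE 0.24, adjusted p = 3.46e-08) and by -3.16 from the mouse (SE 0.27, adjusted p = 2.42e-08). Mean scaled reads were 1845 in the naked mole-rat and 12705, 12653 and 16639 in the Damaraland mole-rat, guinea pig and mouse. The Damaraland minus guinea pig difference was 0.09 (95% interval -0.40 to 0.57).

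Apoc3 (ENSMUSG00000032081), whose product restrains lipolysis and remnant uptake, was not low in the naked mole-rat relative to the mouse. Its values were 14.78, 14.93, 14.63 and 14.26 in the naked mole-rats and 14.79 and 14.70 in the mice, a difference of -0.09 (95% interval -0.79 to 0.60). The Damaraland mole-rats had 15.82, 16.48, 16.19, 16.56 and 15.92, all above these, and the guinea pigs 15.95, 14.64 and 15.59. The naked minus Damaraland difference was -1.54 (SE 0.26, adjusted p = 4.39e-05), and the Damaraland mole-rat exceeded the mouse by 1.45 (SE 0.32, adjusted p = 0.000756). The guinea pig, whose libraries were spread between the others, had no call. Without guinea pig liver replicate 2, however, the naked mole-rat differed from the guinea pig by -1.12 and the guinea pig from the mouse by 1.02, and both became calls, and without replicate 1 the Damaraland minus guinea pig difference of 1.08 did.

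Apoa4 (ENSMUSG00000032080) was highest in the Damaraland mole-rat. It stood at 16.11, 15.39, 15.90, 15.48 and 14.92 in the Damaraland mole-rats and at 15.13, 13.68 and 14.65 in the guinea pigs, ranges that overlapped. The naked mole-rats had 11.14, 10.61, 12.33 and 12.75, and the mice 11.55 and 11.27, which lay within the naked mole-rat range. The naked minus Damaraland difference was -3.85 (SE 0.39, adjusted p = 1.26e-07). The Damaraland mole-rat exceeded the mouse by 4.15 (SE 0.48, adjusted p = 9.61e-07) and the guinea pig by 1.08 (SE 0.42, adjusted p = 0.0328). Among all genes tested, 5.51% were higher in the Damaraland mole-rat than in each other species. The call against the guinea pig was lost without Damaraland liver replicate 1 (0.94) or 3 (0.99), without guinea pig liver replicate 2 (0.67) or 3 (1.16), without the filter on low values (1.08), and with a test on the recovered reads (1.05), with adjusted p-values over all alternatives from 0.0115 to 0.205. The guinea pig also exceeded the naked mole-rat (a difference of -2.78 for naked minus guinea pig, SE 0.44, adjusted p = 2.91e-05) and the mouse (3.07, SE 0.53, adjusted p = 8.72e-05). Markers of other cell types differed in the same livers. The 6 adipocyte markers summed to 55.4 to 284 RPM in the Damaraland mole-rat, against 8.27 to 15.3 in the naked mole-rat, 1.86 to 4.62 in the guinea pig and 12.6 to 12.9 in the mouse, and 2 of the 3 tested were called higher in the Damaraland mole-rat than in the guinea pig and than in the mouse. The 5 measured of 6 bile duct cell markers summed to 8.82 to 33.0 RPM in the Damaraland mole-rat, 132 to 195 in the naked mole-rat, 60.3 to 183 in the guinea pig and 28.0 to 50.4 in the mouse. Their part in the liver results was not tested.

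Apoe (ENSMUSG00000002985) showed no liver call. Its values were 17.52, 18.06, 18.91 and 18.47 in the naked mole-rats, 17.72, 17.86, 17.52, 17.86 and 17.39 in the Damaraland mole-rats, 17.45, 17.89 and 18.43 in the guinea pigs and 17.67 and 18.27 in the mice. All 4 species overlapped. The 6 differences ran from -0.30 to 0.57, and the 95% interval of the largest, naked minus Damaraland, was -0.09 to 1.22. Macrophages also make apolipoprotein E, and the 6 measured of 12 Kupffer cell and macrophage markers summed to 334 to 574 RPM in naked mole-rat, 216 to 355 in Damaraland, 530 to 728 in guinea pig and 285 to 322 in mouse liver.

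Apoh (ENSMUSG00000000049) had a single liver call. The Damaraland mole-rats had 15.75, 16.05, 15.63, 16.24 and 15.57 and the mice 14.94 and 14.59, a difference of 1.09 (SE 0.30, adjusted p = 0.00433) that fell under the size of a call without Damaraland liver replicate 4 (0.99) and lost its call without mouse liver replicate 2 (0.91). The naked mole-rat minus mouse difference of 0.84 became a call without mouse liver replicate 1 (1.01). Naked mole-rats, at 15.78, 15.96, 15.20 and 15.46, and guinea pigs, at 15.64, 14.67 and 15.51, overlapped with each other and with the Damaraland range or the mouse range.

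**Figure D2:**
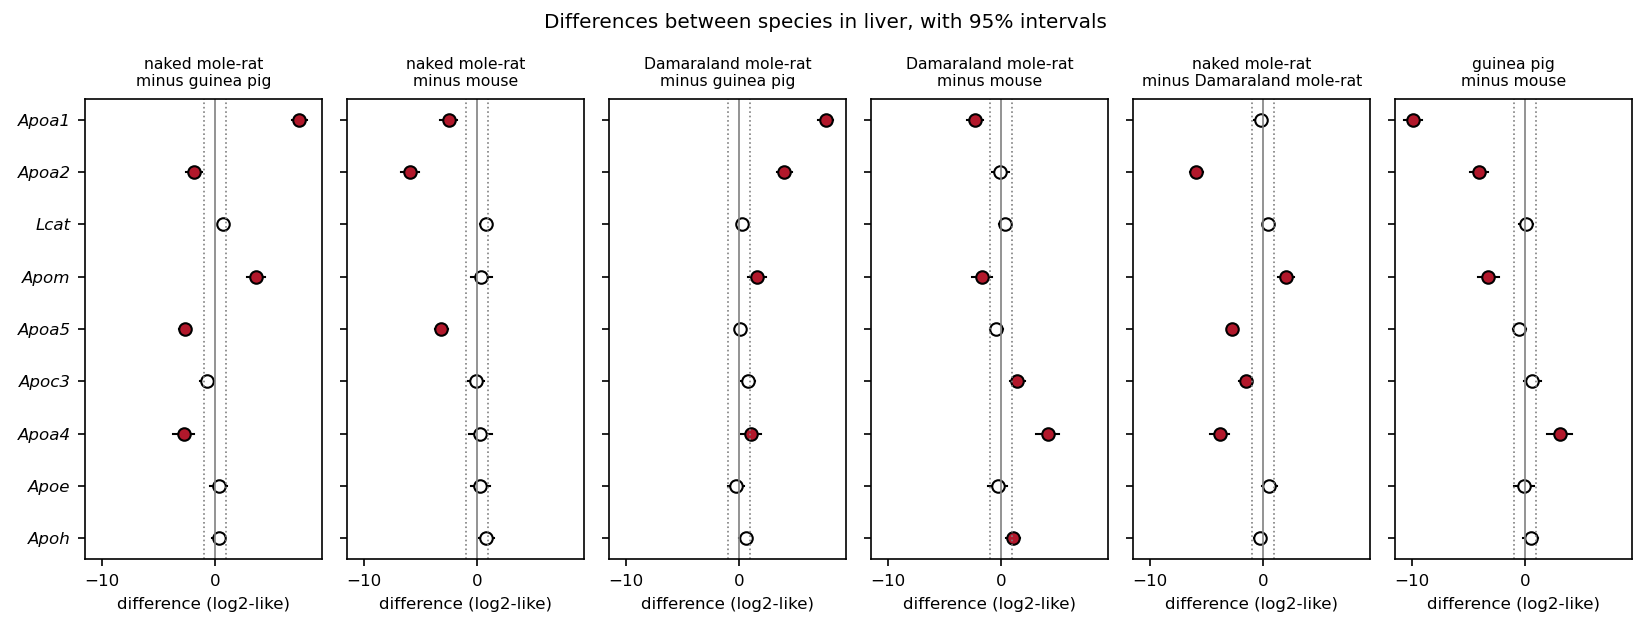
Differences in liver between each pair of species (points, first minus second, log2-like scale) with 95% intervals from limma. Filled points are calls, the dotted lines mark differences of -1 and 1, and the widest difference is that of Apoa1 between guinea pig and mouse, at -9.96.

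Apoa5, Apoa4, Apoc3 and Apoa1 lie side by side in the RefSeq annotation of the Damaraland mole-rat genome (assembly DMR_v1.0_HiC), in that order between Zpr1 and Sik3. These 4 neighbours did not all share a species pattern in liver: Apoa1 was lowest in the guinea pig and Apoa5 in the naked mole-rat. Apoa4 and Apoc3 both had their highest mean in the Damaraland mole-rat, though Apoc3 had no call there against the guinea pig (0.80). Over the 14 liver libraries, Pearson's r was 0.83 between Apoa4 and Apoc3, 0.58 between Apoa5 and Apoa4, and 0.55 between Apoa5 and Apoc3. With Apoa1 it was -0.29 for Apoa4, -0.12 for Apoa5 and -0.06 for Apoc3. These are descriptions over libraries that fall into 4 species. The Apoc3 model overlaps that of Apoa1 in this annotation, and whether counting used strand is not given in the sources used here, so reads of the overlap cannot be assigned with certainty. Apoe lies beside Apoc1, Apoc4 and Apoc2 in the same annotation.

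The gene with the most similar liver pattern to each member, by Pearson's r over the 14 libraries among 10886 others, was Ninj1 for Apoa1 (0.98), S100a10 for Apoa2 (0.99), Sorbs3 for Apom (0.97) and Serpind1 for Lcat (0.93). It was Phb for Apoa5 (0.98), St7 for Apoc3 (0.99), Adap1 for Apoa4 (0.96), Fkbp2 for Apoe (0.88) and Rps26 for Apoh (0.92). All libraries of a species share its gene models and animals' age, and the highest of so many correlations is large by selection.

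Other apolipoprotein genes also differed between species one by one in liver. Of 12 listed, 6 were measured, and 3 to 5 of these 6 were called in each pair of species, with none shifted in both mole-rats. Over all genes tested in liver, 34.2% to 41.2% were called per pair and 6.29% were shifted in both mole-rats. Apoc4, the neighbour of Apoc1, had a mean of 5.20 ± 0.16 (SD, n = 3) in the guinea pig, near the floor, against 13.73 ± 0.20 (n = 2) in the mouse, 9.32 ± 0.47 (n = 4) in the naked and 9.87 ± 0.26 (n = 5) in the Damaraland mole-rat. Saa4, a constitutive serum amyloid A of HDL, was 8.40 ± 0.41 in the Damaraland mole-rat and 13.97 ± 0.11 in the naked mole-rat, 14.74 ± 0.42 in the guinea pig and 11.95 ± 0.07 in the mouse. Apof was higher in the naked than in the Damaraland mole-rat by 2.51 (SE 0.21, adjusted p = 1.69e-08) and Apoc1 by 1.54 (SE 0.31, adjusted p = 0.000315). Clu, which encodes clusterin or apolipoprotein J, was higher in the Damaraland mole-rat than in the guinea pig by 1.62 (SE 0.24, adjusted p = 1.65e-05) and than in the mouse by 1.77 (SE 0.28, adjusted p = 2.91e-05). Apod was at 8.14 ± 0.29 in guinea pig and 6.30 ± 0.12 in Damaraland mole-rat liver. It was near the floor in naked mole-rat liver, at 4.37 ± 0.16, and had no read in the mouse livers.

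Genes that act around the apolipoproteins were counted by list in liver, beside the same 34.2% to 41.2% of all genes called per pair and 6.29% shifted in both mole-rats. Of 15 tested receptors and cholesterol transporters, 5 to 9 were called in each pair of species, and none was shifted in both mole-rats. Of 17 tested genes of lipoprotein assembly, lipolysis and lipid transfer, 5 to 11 were called per pair, and 1 was shifted in both mole-rats. This was Tm6sf2, whose product takes part in loading lipid onto very-low-density lipoprotein, at 10.86 ± 0.24 in the naked and 10.60 ± 0.19 in the Damaraland mole-rat against 8.70 ± 0.30 in the guinea pig and 7.51 ± 0.08 in the mouse. Its smallest mole-rat minus outgroup difference was 1.90 (SE 0.17, adjusted p = 3.23e-08). Of 17 tested transcription factors known to act on hepatic apolipoprotein genes, 5 to 8 were called per pair and none was shifted in both mole-rats. The median difference of these 3 lists lay between -0.89 and 0.96 over the 6 pairs, while that of all genes lay between -0.03 and 0.05.

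In heart, 8 of the 9 genes passed the filter on low values, Apoa5 being under it, and none of the 8 was shifted in both mole-rats by limma (4.68% of 10667 genes tested), at an unadjusted p under 0.05 or with voom. Calls numbered 4 for the naked mole-rat against the guinea pig (33.0% of all genes tested), 6 against the mouse (38.2%), 3 for the Damaraland mole-rat against the guinea pig (29.7%), 3 against the mouse (34.9%), 5 between the mole-rats (29.4%) and 5 for the guinea pig against the mouse (32.1%). Most of these genes had few reads in heart. Hepatocyte markers differed in naked mole-rat heart, where all 11 of 11 were called higher than in each other species. They summed to 1079 to 2560 RPM there, against 160 to 476 in the Damaraland mole-rat, 52.6 to 226 in the guinea pig and 24.4 to 81.5 in the mouse. In the other pairs, 2 of the 11 were called higher for the Damaraland mole-rat against the guinea pig, 7 against the mouse and 1 for the guinea pig against the mouse. Their part in the heart results was not tested.

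**Figure D3:**
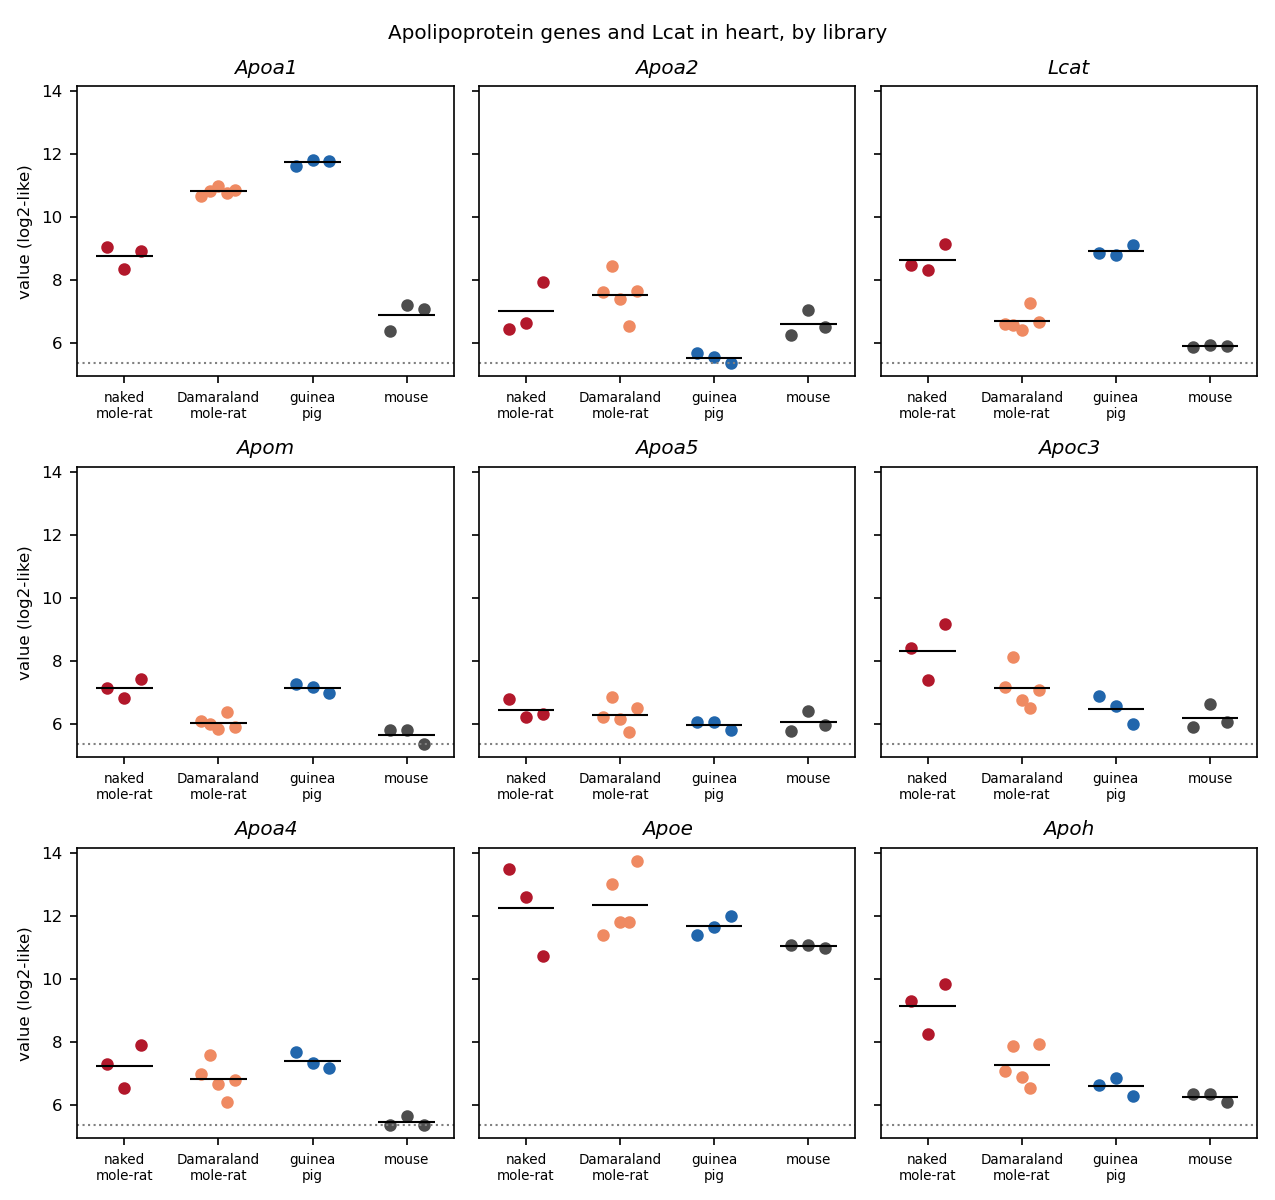
Heart values of the 9 genes in each library (points) and the mean of each species (bars), on the log2-like scale with the floor as a dotted line. Guinea pig hearts sit highest for Apoa1, at 11.63 to 11.83, and several genes lie close to the floor of 5.36.

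Apoa1 placed the guinea pig and the mouse in the opposite order in heart from that in liver. Its heart values were 11.63, 11.83 and 11.78 in the guinea pigs, 10.69, 10.84, 10.99, 10.76 and 10.85 in the Damaraland mole-rats, 9.06, 8.34 and 8.93 in the naked mole-rats and 6.39, 7.22 and 7.08 in the mice. No species overlapped with another. The guinea pig hearts held 4741, 4652 and 4343 reads and the mouse hearts 33, 100 and 82. The guinea pig exceeded the mouse by 4.85 (SE 0.22, adjusted p = 1.6e-11) and the Damaraland mole-rat exceeded the mouse by 3.93 (SE 0.19, adjusted p = 3.27e-11), whereas the Damaraland minus guinea pig difference of -0.92 (SE 0.19, adjusted p = 0.000563) was under the size of a call. The mouse was lower than each other species, as were 3.80% of all genes tested.

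Heart and liver of the same animal were set side by side as RPM of each library, because the tables were normalised separately, and no test was made. In 3 guinea pigs, Apoa1 in heart was 4731%, 1882% and 3853% of its level in liver, or 231, 288 and 260 RPM in heart against 4.88, 15.3 and 6.75 in liver. The hepatocyte markers in these hearts were at 0.116%, 0.155% and 0.0393% of their liver level. In 4 Damaraland mole-rats, Apoa1 in heart was 5.35% to 6.82% of liver, and the markers 0.102% to 0.3002%. In 2 naked mole-rats it was 1.98% and 1.55%, with markers at 1.44% and 0.583%, and in the single mouse with both tissues it was 0.0425%, with markers at 0.0855%. The guinea pig was thus the only one of the 4 species in which the heart libraries held more Apoa1 than the liver libraries.

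**Figure D4:**
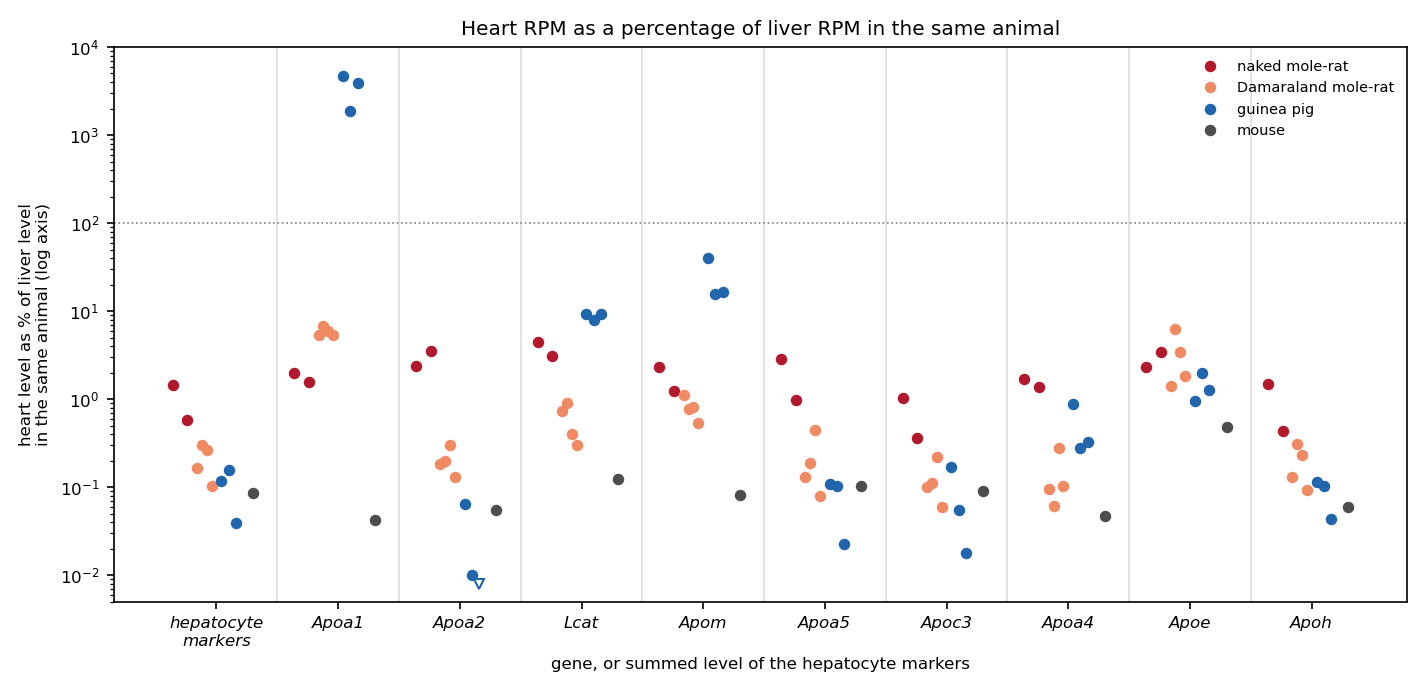
Level in heart as a percentage of the level in liver of the same animal, in RPM on a log axis, for the summed hepatocyte markers and each gene; each point is 1 of 10 animals and the open triangle is a guinea pig heart without an Apoa2 read. Guinea pig Apoa1, at 1882% to 4731%, is the only group above the dotted line at 100%.

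Lcat was read most in guinea pig and naked mole-rat heart. Lcat had 602, 480 and 610 reads in the guinea pig hearts and 333, 375 and 131 in the naked mole-rat hearts, against 38, 34, 35, 87 and 23 in the Damaraland mole-rat and 8, 9 and 7 in the mouse. On the value scale the guinea pig exceeded the mouse by 3.03 (SE 0.23, adjusted p = 8.44e-09), and the naked mole-rat exceeded the mouse by 2.74 (SE 0.23, adjusted p = 2.03e-08) and the Damaraland mole-rat by 1.95 (SE 0.20, adjusted p = 3.79e-07). Apom had 126, 96 and 73 reads in guinea pig heart and 84, 73 and 27 in naked mole-rat heart, against 12, 9, 7, 23 and 4 in the Damaraland mole-rat and 6, 5 and 0 in the mouse. In the guinea pigs with both tissues, Lcat in heart was 8.01% to 9.32% of liver, Apom 15.8% to 40.0% and Apoa4 0.279% to 0.879%, beside hepatocyte markers at 0.0393% to 0.155%. In the naked mole-rats Lcat was at 3.07% to 4.47% and Apom at 1.22% to 2.31%, beside markers at 0.583% to 1.44%. In the Damaraland mole-rats Lcat was at 0.301% to 0.900% and Apom at 0.540% to 1.11%, beside markers at 0.102% to 0.3002%. Compared within each animal, Apom and Lcat lay above the markers in every guinea pig, Damaraland mole-rat and naked mole-rat with both tissues. In the single mouse with both tissues, Lcat was at 0.124% and Apom at 0.0825%, beside markers at 0.0855%.

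Apoe was abundantly read in every heart, with 435 to 13625 reads, and varied most within the mole-rats. Its values were 13.50, 12.60 and 10.73 in the naked mole-rats, 11.42, 13.04, 11.83, 11.82 and 13.75 in the Damaraland mole-rats, 11.41, 11.67 and 12.02 in the guinea pigs and 11.10, 11.07 and 10.98 in the mice. The single call was Damaraland against mouse, at 1.32 (SE 0.52, adjusted p = 0.0355). It was lost without Damaraland heart replicate 2 (1.15) or 5 (0.97), and without mouse heart replicate 1 (1.34), 2 (1.33) or 3 (1.28), and also without the filter on low values, at the same difference. The value of 10.73 belonged to the shallowest library, and without it the naked mole-rat exceeded the mouse by 2.00 and the guinea pig by 1.35, both of which then became calls. The heart percentages of liver in the same animals were 2.34% to 3.42% in the naked mole-rat, 1.41% to 6.31% in the Damaraland mole-rat, 0.941% to 1.97% in the guinea pig and 0.478% in the mouse.

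Apoh and Apoc3 were highest in naked mole-rat heart, where the hepatocyte markers were highest too. Apoh had 660, 358 and 227 reads there, and its values of 9.32, 8.27 and 9.85 were above every library of the other species. It exceeded the Damaraland mole-rat by 1.88 (SE 0.33, adjusted p = 0.000116), the guinea pig by 2.55 (SE 0.37, adjusted p = 1.68e-05) and the mouse by 2.87 (SE 0.37, adjusted p = 3.67e-06). Apoc3 exceeded the same species by 1.19 (SE 0.37, adjusted p = 0.00956), 1.84 (SE 0.41, adjusted p = 0.000984) and 2.13 (SE 0.41, adjusted p = 0.000237), but its values of 8.40, 7.41 and 9.17 overlapped with the Damaraland range, and the call against the Damaraland mole-rat was lost without naked mole-rat heart replicate 3 (0.77) and with array weights (0.75). Among all genes tested, 4.87% were higher in naked mole-rat heart than in each other species. Relative to liver in the same naked mole-rats, Apoh was at 1.48% and 0.434% and Apoc3 at 1.04% and 0.366%, beside markers at 1.44% and 0.583%.

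The remaining genes were rarely read in heart. Apoa2 had 3, 1 and 0 reads in the guinea pigs and 25 to 307 elsewhere, and was lower in the guinea pig than in each other species (2.62% of all genes tested). However, the call against the mouse (-1.08, SE 0.40, adjusted p = 0.0277) was lost without guinea pig heart replicate 2 (-1.09) or 3 (-0.99). That call was lost also without mouse heart replicate 2 (-0.86) or 3 (-1.12), and without the filter on low values at the same difference. Apoa4 had 0, 2 and 0 reads in the mice and 11 to 205 in the other hearts. The mouse was lower than each other species, by differences of 1.80 from the naked and 1.37 from the Damaraland mole-rat and 1.95 from the guinea pig, on a scale that compresses such counts. Apoa5 had 3 to 56 reads in any heart.

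Around these genes, 3 to 11 of 15 tested genes of lipoprotein assembly, lipolysis and lipid transfer were called in each pair of species in heart, and 3 were shifted in both mole-rats. Over all genes tested in heart, 29.4% to 38.2% were called per pair and 4.68% were shifted in both mole-rats. Both mole-rats had less Lpl, the lipase that releases fatty acids from circulating triglyceride, at 12.81 ± 0.34 (SD, n = 3) in the naked and 12.49 ± 0.46 (n = 5) in the Damaraland mole-rat, against 15.27 ± 0.01 (n = 3) in the guinea pig and 16.49 ± 0.12 (n = 3) in the mouse. The differences ran from -2.46 (SE 0.26, adjusted p = 4.52e-07) to -4.00 (SE 0.23, adjusted p = 2.43e-10). Pla2g7, the lipoprotein-associated phospholipase, and Tm6sf2 were higher in both mole-rats, by at least 1.47 (SE 0.18, adjusted p = 1.66e-06) and 1.31 (SE 0.20, adjusted p = 2.67e-05). Tm6sf2 was near the floor in the outgroup hearts, at 5.79 ± 0.07 in the guinea pig and 5.99 ± 0.13 in the mouse, with scaled reads of 2.30 to 4.55 and 4.65 to 11.2. Of 13 tested receptors and transporters 1, Lrp2, which encodes megalin, was higher in both mole-rats, by at least 1.08 (SE 0.41, adjusted p = 0.0273), and the guinea pig hearts held no read of it. That smallest difference was between naked mole-rat and mouse, whose Lrp2 values overlapped, at 6.86 to 8.75 and 6.135 to 7.18. Of the other apolipoprotein genes, Apod was higher in guinea pig than in mouse heart by 6.03 (SE 0.34, adjusted p = 2.6e-10), and Clu was lower in the naked than in the Damaraland mole-rat, with a difference of -4.35 (SE 0.25, adjusted p = 2.5e-10).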

How the data were processed

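Per the submitters' processing notes, reads were quantified with Salmon and transformed with DESeq2. The only build named there is the mouse build GRCm38. The assignment of genes across species is not given in the sources used here. The authors deposited 1 table of variance-stabilised log2-like values per tissue, with mouse gene identifiers, of which 13921 of 13928 matched a symbol. A further 26 columns were not used. The transform was inverted from the floor value, and reads per gene came out whole (tolerance 0.0001). The deposited log2 values were tested as they stood (limma 3.58.1, R 4.3.3), per tissue over all 4 species, with a variance trend, for genes with a mean of at least floor + 1. Benjamini-Hochberg adjustment covered all tested genes. A call required a difference of at least 1 in either direction, with adjusted p under 0.05. The steps were tested on simulated data. Alternatives covered the size threshold, filter, scaling, variance model, sample weights, voom on recovered reads, a replicate block and each library left out. All 10 listed genes, every gene of the pathway lists shifted in both mole-rats, the measured other apolipoproteins and the nearest gene of each member were named, except 1 heart result that is not reported here; cell type markers are given as counts and sums. The members and lists were chosen with earlier results of these data known.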

Additional observations from a re-analysis of the deposited data

Results flagged for a closer look

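In 27 groups of 4 or 5 libraries, 2 values lay far from the rest of their group by Dixon's criterion, which chance meets in about 1 of 20 groups. Apoa2 in naked mole-rat liver replicate 2 was 11.01, while the other 3 libraries lay between 10.05 and 10.19. Apom in Damaraland liver replicate 4, the female, was 11.43, while the other 4 libraries lay between 9.59 and 9.96.

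Of 48 member differences tested in both tissues, 9 had the libraries of the species apart in both tissues but in opposite order. The difference between tissues was not tested. For Apoa1, the naked mole-rat minus guinea pig difference was 7.46 in liver and -2.97 in heart, and naked mole-rat minus mouse was -2.50 and 1.88. Damaraland minus guinea pig was 7.68 and -0.92, and Damaraland minus mouse -2.29 and 3.93. Guinea pig minus mouse was -9.96 in liver and 4.85 in heart. For Apoa2, naked mole-rat minus guinea pig was -1.88 in liver and 1.48 in heart. For Apom, Damaraland minus guinea pig was 1.59 in liver and -1.09 in heart, Damaraland minus mouse -1.65 and 0.39, and guinea pig minus mouse -3.23 and 1.48.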

How the results depend on the processing

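The counts of kept calls that follow leave out the fit without a size threshold and the test against a difference of 1. Of the 26 called liver differences 24 kept their call under every other alternative that tested the gene, and 24 of the 28 without a call gained none. In heart these were 23 of 26 and 14 of 22. Among the 2202 differences of these alternatives 41 changed sign, none of them with a call. No member became shifted in both mole-rats in either tissue. Without a size threshold, 5 members were called in liver for naked mole-rat against mouse, and 7 in heart for Damaraland mole-rat against mouse. A test against a difference of 1 left 2 in liver for the Damaraland mole-rat compared with guinea pig and 2 compared with mouse. In heart it left 2 for naked mole-rat against guinea pig, 1 for Damaraland mole-rat against mouse, 2 between the mole-rats and 3 for guinea pig against mouse. Of 2 members above the heart table's median, 1 was called for naked mole-rat against guinea pig, 1 against mouse, 0 for Damaraland mole-rat against guinea pig, 1 between the mole-rats and 1 for guinea pig against mouse; fewer genes were tested there. Damaraland mole-rat against mouse in heart had 5 centred on library medians, 6 with array weights and 8 with voom on recovered reads; the cause was not tested.

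Same-numbered libraries were different animals, and their deviations correlated from -0.23 to 0.15 in liver and from -0.26 to 0.30 in heart. Differently numbered libraries were not correlated beside them, so these values cannot decide whether libraries of equal number share anything. With replicate block, 5 were called in heart for Damaraland mole-rat against mouse, Apoe (1.04) not among them, nor was Apoc3 between mole-rats called (0.97). Leaving out libraries in turn gave, in liver, 5 to 6 (naked mole-rat against guinea pig), 3 to 4 (against mouse), 3 to 5 (Damaraland mole-rat against guinea pig), 4 to 5 (against mouse), 5 (between mole-rats) and 4 to 5 (guinea pig against mouse). In heart it gave 4 to 5 (naked mole-rat against guinea pig), 6 to 7 (against mouse), 2 to 3 (Damaraland mole-rat against guinea pig), 2 to 6 (against mouse), 3 to 5 (between mole-rats) and 4 to 5 (guinea pig against mouse). Leaving out Damaraland heart replicate 4 gave the 6 against mouse, and Damaraland heart replicate 3 or mouse heart replicate 2 gave 5. Damaraland heart replicate 2 or 5 or mouse heart replicate 3 gave 2. Leaving out naked mole-rat heart replicate 3 gave the 3 between mole-rats and the 2 for Damaraland mole-rat against guinea pig. Without that library Apom was under the filter on low values and not tested, and Apoc3 between mole-rats lost its call (0.77). The called Apom differences in heart kept their call in every alternative that tested the gene. Without 1 mouse liver, the lone library was assumed to vary like the others. Genes with few heart reads are compressed: Lcat for Damaraland mole-rat against mouse was 0.80, and 2.50 with voom.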
